A study of Rattus norvegicus with 10 samples.

Results

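The smooth muscle type contractile genes described here are Acta2, Tagln, Cnn1, Lmod1, Myh11, Myl9, Actg2, Cald1, Tpm2 and Flna. These genes were chosen by name, with earlier results of these data known. They are 10 of the 14217 genes that had a probe set of their own. All probe sets annotated to them were taken, which gave 19 of the 31042 probe sets that are not array controls. Of these 19, 14 carried the symbol of 1 of the genes and 5 carried Acta2 together with Actc1, the gene of cardiac alpha actin. Signal on those 5 cannot be assigned to either actin, so they are described apart.

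The RNA came from primary cultures of ventricular heart muscle cells of Lewis rats, 0 to 3 days after birth. After a recovery phase the cells were kept for 3 days without electric stimulation and untreated (nonpulsed, 3 arrays), with electric pulses at 1 Hz and 2 V/cm (pulsed, 4 arrays), or with those pulses and blebbistatin at 10 µmol/L (blebbistatin, 3 arrays). Blebbistatin inhibits myosin II and stops contraction. No array held blebbistatin without pulses, so blocked contraction and any other effect of the drug cannot be told apart. RNA from duplicate experiments was pooled before hybridisation, and arrays whose titles share a culture date are called a culture series. All 3 groups were present in series 2 and 3. Series 1 lacked a blebbistatin array and series 4 a nonpulsed one.

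Smooth muscle contractile genes are classic targets of serum response factor, SRF, which binds a DNA element called the CArG box and acts with myocardin and the related coactivators MRTF-A and MRTF-B. The MRTFs are held in the cytoplasm by actin monomers and enter the nucleus when actin polymerises, so this gene program follows the state of the cytoskeleton. The immature heart muscle cell transiently uses several of these proteins, and cultured fibroblasts that turn into myofibroblasts and vascular smooth muscle cells also make them. Blebbistatin acts on the myosin II motors that pull on such actin filaments.

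RefSeq promoter windows of the rat assembly GRCr8, from 250 bases before to 50 bases after the gene start, were at hand for 6 of the 10 genes, with 7 windows in all. Tagln, Lmod1, Myh11 and Myl9 had none. The windows were searched on both strands for the CArG box, the element of 10 bases that has 6 A or T bases at its centre, and for forms with 1 mismatch among those 6. Of the 7 windows, 0 held an exact CArG box and 1, that of Acta2, held forms with 1 mismatch. Over all 33469 windows of the same length, 1.64% held an exact box and 9.42% an exact or 1-mismatch form. The Acta2 window, chr1:241172454-241172753 on the minus strand, is shown because Acta2 is the member with these elements, and the Actc1 window, chr3:121271778-121272077 on the minus strand, because 5 probe sets were annotated to both genes. Capitals mark the CArG box forms.
Acta2: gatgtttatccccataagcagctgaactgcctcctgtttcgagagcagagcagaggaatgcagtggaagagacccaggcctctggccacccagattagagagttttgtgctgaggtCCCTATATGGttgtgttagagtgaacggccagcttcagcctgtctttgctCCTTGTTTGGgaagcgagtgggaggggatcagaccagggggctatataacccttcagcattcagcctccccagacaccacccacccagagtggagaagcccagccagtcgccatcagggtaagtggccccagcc
Actc1: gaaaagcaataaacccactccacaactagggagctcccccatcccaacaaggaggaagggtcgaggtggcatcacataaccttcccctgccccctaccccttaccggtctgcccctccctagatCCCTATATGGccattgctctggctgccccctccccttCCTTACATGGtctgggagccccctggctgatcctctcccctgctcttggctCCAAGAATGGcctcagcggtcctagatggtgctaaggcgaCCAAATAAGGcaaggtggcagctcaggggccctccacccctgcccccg
The 2 Acta2 forms began 134 and 84 bases before the start and had 1 mismatch each. The Actc1 window held 3 forms with 1 mismatch and 1 exact box, CCAAATAAGG, which began just after the gene start. The form CCCTATATGG was in both windows. A match is a description of the letters, not a measured binding site. Bases outside these windows were not searched, so a gene without a match here may hold the element elsewhere.

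The array values are log2 signals. A difference of 1 in log2 signal is a doubling on the linear scale, and levels of different probe sets cannot be set against each other. Array medians lay between 6.57 and 6.78, and the lowest level on an array between 3.32 and 3.46. All 14 probe sets of 1 gene passed the filter on dim signal, which kept 23281 probe sets with a mean log2 signal of at least 5.09. Markers of heart muscle cells were set beside the labelled cell type. Of 10 such genes, 9 had a probe set of their own, all 9 passed the filter, and the mean log2 signal of Myh6, the alpha myosin heavy chain, was 12.98, 13.38 and 13.53 in nonpulsed, pulsed and blebbistatin arrays. All 13 fibroblast markers and 10 of 12 vascular smooth muscle and pericyte markers also passed. The filter kept 23281 of all 31042 probe sets, and each marker was taken at its brightest probe set. Passing it therefore does not show that a cell type was present. In bulk RNA, fewer cells of a type and less RNA per cell cannot be told apart.

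Across the 3 groups the smooth muscle genes were lowest with blebbistatin. The lowest of the 10 arrays was a blebbistatin array for 12 of the 14 probe sets and a pulsed array for the other 2. The highest was a nonpulsed array for 11. Lowest and highest arrays were not counted over all probe sets, so no array-wide share stands beside these counts. The pulsed array of series 1, in contrast, was below its nonpulsed partner for 11 of the 14, while that of series 3 was below its partner for 3. Over all 23281 probe sets tested, these 2 pulsed arrays were below their partners for 8655 and 10451.

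**Figure D1:**
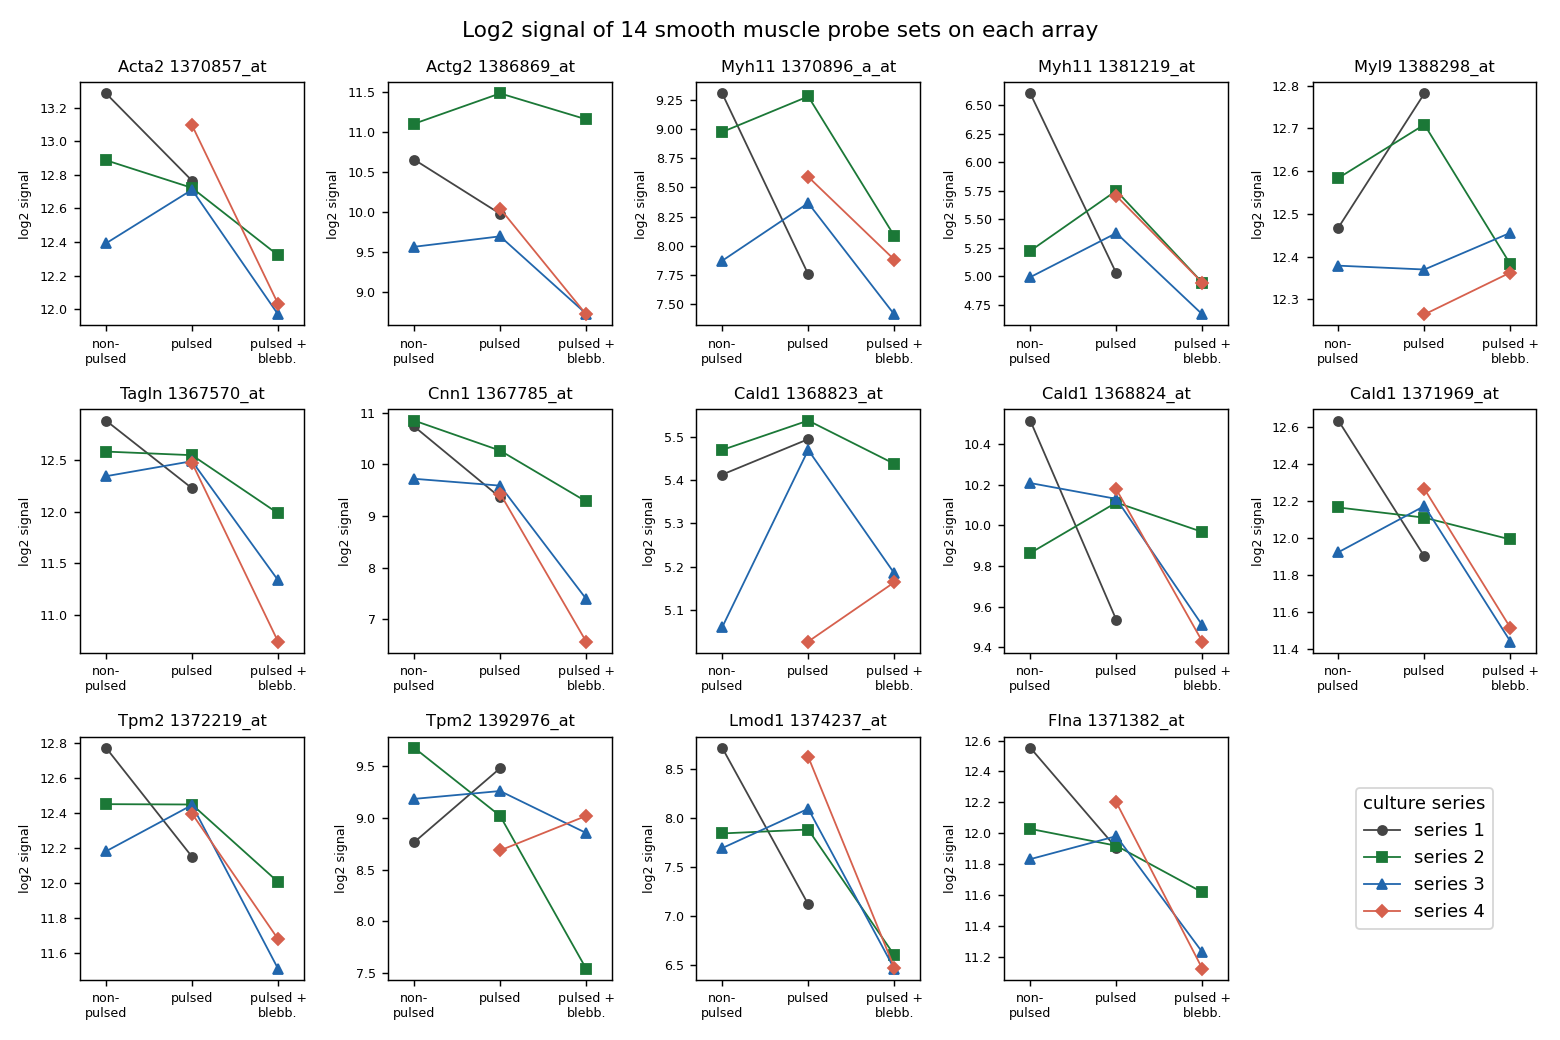
Log2 signal (vertical axis, scale set per panel) of the 14 probe sets annotated to 1 smooth muscle gene, by treatment group (horizontal axis); each point is 1 array and lines join the arrays of a culture series. The blebbistatin arrays of Cnn1, Lmod1 and Tagln lie below all other arrays, while those of Myl9 lie within the range of the other groups.

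Acta2 encodes the actin of smooth muscle thin filaments and is the usual mark of a myofibroblast. Its own probe set had log2 signals of 13.29, 12.89 and 12.39 on the nonpulsed arrays of series 1, 2 and 3, of 12.77, 12.72, 12.71 and 13.10 on the pulsed arrays of series 1 to 4, and of 12.32, 11.97 and 12.03 on the blebbistatin arrays of series 2 to 4. The 3 blebbistatin arrays lay below all 7 others, and the nonpulsed and pulsed arrays overlapped. With blebbistatin the fitted log2 change against pulsed cultures was -0.66 (SE 0.18, 1.58-fold lower; limma, unadjusted p = 0.00713, Benjamini-Hochberg adjusted p = 0.303).

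Actg2 encodes the gamma actin of enteric smooth muscle. Its log2 signals were 10.66, 11.11 and 9.57 on the nonpulsed arrays of series 1 to 3, 9.98, 11.49, 9.70 and 10.05 on the pulsed arrays of series 1 to 4, and 11.16, 8.73 and 8.73 on the blebbistatin arrays of series 2 to 4. All 3 arrays of series 2 lay above every other array, whatever the treatment, and the groups overlapped. Within each series the blebbistatin array was below the pulsed one, by differences of -0.32, -0.97 and -1.32. The fitted log2 change was -0.75 (SE 0.26; limma, unadjusted p = 0.0229, adjusted p = 0.366).

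Myh11 encodes the smooth muscle myosin heavy chain, the most specific protein of the contractile smooth muscle cell. The brighter of its 2 probe sets had log2 signals of 9.30, 8.97 and 7.87 in nonpulsed series 1 to 3, of 7.76, 9.28, 8.37 and 8.59 in pulsed series 1 to 4, and of 8.09, 7.42 and 7.88 in blebbistatin series 2 to 4. All 3 groups overlapped, with the nonpulsed array of series 3 and the pulsed array of series 1 within the range of the blebbistatin arrays. The dimmer probe set lay near the filter, at 4.67 to 4.95 in blebbistatin, 5.03 to 5.75 in pulsed and 4.99 to 6.60 in nonpulsed arrays. Its blebbistatin arrays were below all others by a narrow margin. The fitted changes against pulsed cultures were -0.74 (SE 0.34) and -0.53 (SE 0.36), with unadjusted p of 0.0666 and 0.180 in limma.

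Myl9 encodes the regulatory light chain that myosin light chain kinase phosphorylates to start smooth muscle contraction. Its log2 signals were 12.47, 12.58 and 12.38 in nonpulsed series 1 to 3, 12.78, 12.71, 12.37 and 12.27 in pulsed series 1 to 4, and 12.38, 12.46 and 12.36 in blebbistatin series 2 to 4. The groups overlapped throughout, and the blebbistatin array was above the pulsed one in series 3 and 4. The fitted change of -0.08 had a 95% interval from -0.36 to 0.20, the narrowest but one among the 14 probe sets, so a change the size of that of Acta2 lay outside it.

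Among the proteins that bind the thin filament, Cnn1, which encodes the smooth muscle calponin, had the widest differences of all members. Its log2 signals were 10.74, 10.85 and 9.72 in nonpulsed series 1 to 3, 9.36, 10.27, 9.59 and 9.44 in pulsed series 1 to 4, and 9.28, 7.40 and 6.57 in blebbistatin series 2 to 4. The blebbistatin arrays were the lowest 3, although that of series 2 was only just below the lowest pulsed array. The fitted change was -1.87 against pulsed cultures (SE 0.36, 3.66-fold lower; limma, unadjusted p = 9.9e-04, adjusted p = 0.176) and -2.40 against nonpulsed cultures (SE 0.40, 5.30-fold lower; limma, unadjusted p = 4.5e-04, adjusted p = 0.061). In series 2 and 3, which held both of the latter groups, the differences were smaller, at -1.567 and -2.325.

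Tagln encodes transgelin, also called SM22 alpha, a calponin relative that bundles actin. Its log2 signals were 12.89, 12.58 and 12.35 in nonpulsed series 1 to 3, 12.23, 12.55, 12.49 and 12.48 in pulsed series 1 to 4, and 11.99, 11.34 and 10.74 in blebbistatin series 2 to 4. The blebbistatin arrays were again below all others, and the 4 pulsed arrays were close together (12.44 ± 0.14, SD, n = 4). The fitted change against pulsed cultures was -1.05 (SE 0.24, 2.07-fold lower; limma, unadjusted p = 0.00274, adjusted p = 0.249).

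Cald1 encodes caldesmon, which restrains actomyosin and has a smooth muscle and a nonmuscle form. The brightest of its 3 probe sets averaged 12.24 ± 0.36 over the nonpulsed arrays (SD, n = 3), 12.11 ± 0.16 over the pulsed arrays (SD, n = 4) and 11.65 ± 0.30 over the blebbistatin arrays (SD, n = 3), and the groups overlapped. The fitted changes against pulsed cultures were -0.43 (SE 0.20) for the brightest, -0.38 (SE 0.25) for the middle and -0.07 (SE 0.11) for the dim probe set, whose means lay between 5.26 and 5.38.

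Tpm2 encodes beta tropomyosin, which smooth and striated muscle share. The brighter of its 2 probe sets had log2 signals of 12.77, 12.45 and 12.18 in nonpulsed series 1 to 3, 12.15, 12.45, 12.45 and 12.40 in pulsed series 1 to 4, and 12.01, 11.51 and 11.68 in blebbistatin series 2 to 4. The blebbistatin arrays were below all others, with a fitted change of -0.61 against pulsed cultures (SE 0.17; limma, unadjusted p = 0.00770, adjusted p = 0.309). The dimmer probe set had a similar estimate of -0.65 but an SE of 0.41, and its differences were -1.47, -0.41 and 0.33 in series 2, 3 and 4. Its groups overlapped.

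Lmod1 encodes the smooth muscle leiomodin, which nucleates actin filaments. Its log2 signals were 8.72, 7.84 and 7.69 in nonpulsed series 1 to 3, 7.12, 7.88, 8.10 and 8.63 in pulsed series 1 to 4, and 6.60, 6.46 and 6.47 in blebbistatin series 2 to 4. The 3 blebbistatin arrays were nearly equal (6.51 ± 0.08, SD, n = 3) and below the other 7. The fitted change against pulsed cultures was -1.47 (SE 0.36, 2.77-fold lower; limma, unadjusted p = 0.00435, adjusted p = 0.280). Flna encodes filamin A, an actin crosslinker of many cell types. Its log2 signals were 12.55, 12.03 and 11.83 in nonpulsed series 1 to 3, 11.90, 11.92, 11.98 and 12.20 in pulsed series 1 to 4, and 11.62, 11.23 and 11.12 in blebbistatin series 2 to 4. The blebbistatin arrays were below all others. The fitted change against pulsed cultures was -0.62 (SE 0.19; limma, unadjusted p = 0.0126, adjusted p = 0.316).

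The 5 probe sets annotated to both Acta2 and Actc1 stood apart from the Acta2 probe set. Their mean log2 signals lay between 10.90 and 13.57 in pulsed and between 11.01 and 13.55 in blebbistatin arrays, and the groups overlapped for all 5. The fitted changes against pulsed cultures ran from -0.02 to 0.12, and in series 4, where the Acta2 probe set differed by -1.07, 0 of the 5 were lower with blebbistatin. Of all 23281 probe sets tested, 9889 were lower in series 4. Of the 5, 0 had an unadjusted p under 0.05 in any of the 3 comparisons in limma. Over all probe sets 5.51% were lower and 6.09% higher with blebbistatin against pulsed cultures, and 1.36% and 7.71% with pulses. Against nonpulsed cultures 6.89% were lower and 15.5% higher with blebbistatin. With shares this small, a count of 0 among 5 says little.

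**Figure D2:**
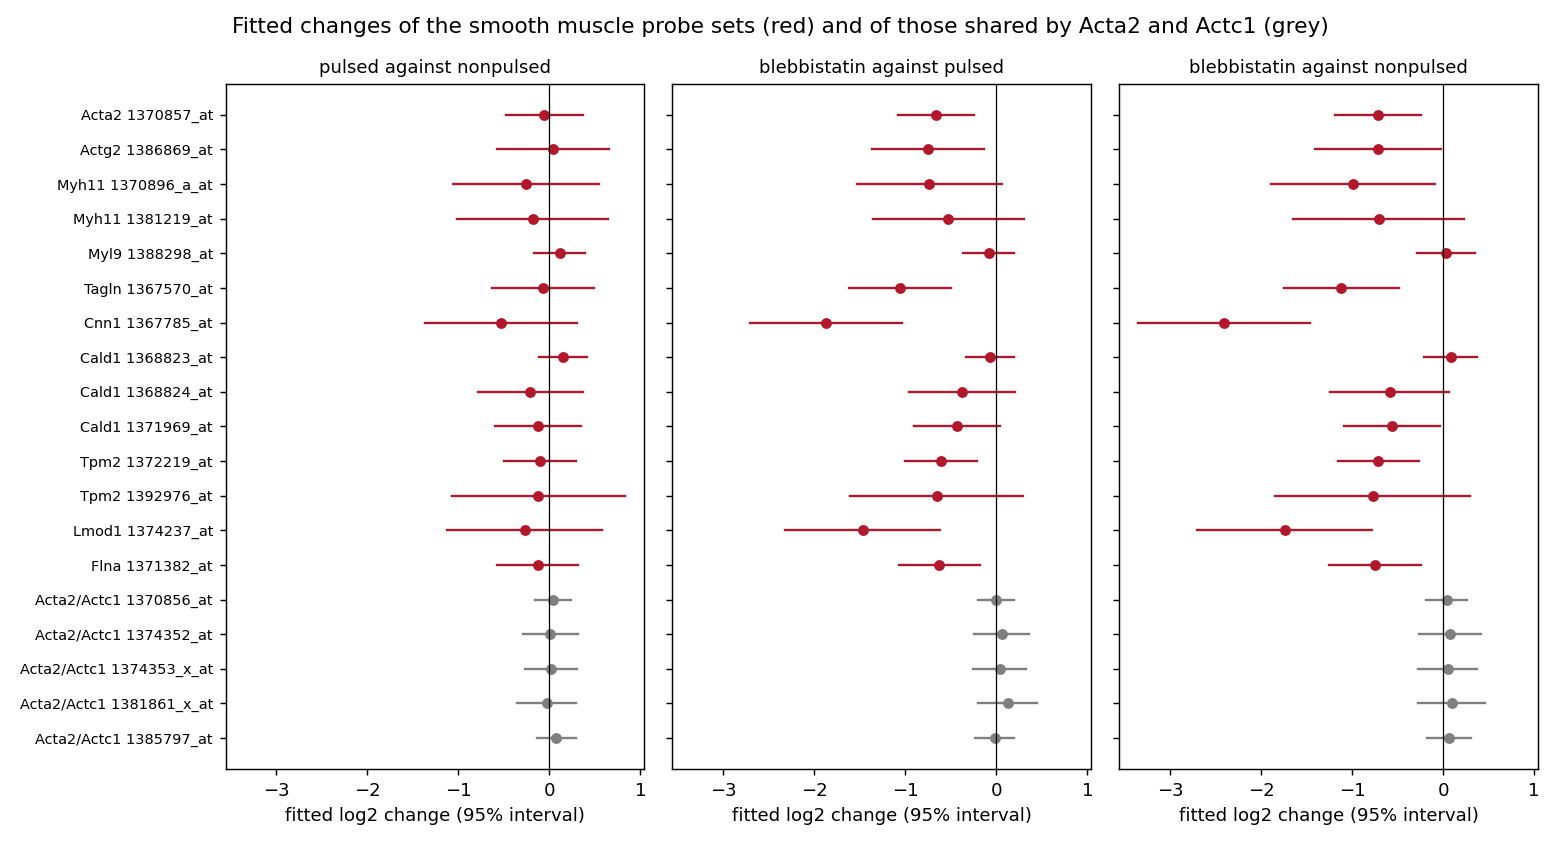
Fitted log2 change (point) and 95% interval (line) from limma with culture series as a block, for each probe set in the 3 comparisons; red marks probe sets of 1 smooth muscle gene and grey those shared by Acta2 and Actc1. All 14 red points are below 0 for blebbistatin against pulsed, and the 5 grey ones lie between -0.02 and 0.12.

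Blebbistatin arrays were set against pulsed arrays to ask what differed when contraction was blocked under continued pacing. All 14 probe sets had a negative fitted change, from -0.07 (the dim Cald1 probe set) to -1.87 (Cnn1), against 44.5% of all probe sets tested. Their median was -0.64, and that of all 23281 probe sets 0.02. At an unadjusted p under 0.05 in limma, 7 of the 14 were lower and 0 higher, against 5.51% lower and 6.09% higher of all probe sets. The 7 were Acta2, Actg2, Cnn1, Flna, Lmod1, Tagln and the brighter Tpm2 probe set. After Benjamini-Hochberg adjustment over all probe sets tested, 0 of the 14 passed and the smallest adjusted p was 0.176 (Cnn1), while 3 probe sets of the whole array passed (0.0129%). The probe sets share their RNA and several share a gene, so the 14 are not independent. Because the genes were chosen with earlier results of these data known, the shares over all probe sets are a description and not a test. Without series 3 the number lower at an unadjusted p under 0.05 was 4. Without series 1 it was 11 and 2 passed the adjusted threshold, Lmod1 and the dimmer Myh11 probe set (smallest adjusted p = 0.0322 in limma). Over the whole array, 2.71% of probe sets were lower without series 3, and 7.03% were lower and 48 passed the adjusted threshold without series 1. Series 1 holds no blebbistatin array and entered this fit through its difference between pulsed and nonpulsed arrays.

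The difference was also taken within each culture series. Series 2, 3 and 4 had medians over the 14 probe sets of -0.42, -0.75 and -0.76. In series 2 all 14 were lower with blebbistatin, in series 3 13 and in series 4 11. Of all 23281 probe sets tested, 10598, 10984 and 9889 were lower in series 2, 3 and 4. In all 3 series 11 of the 14 were lower and 0 higher, against 15.2% and 23.5% of all probe sets. The exceptions were Myl9, the dim Cald1 probe set and the dimmer Tpm2 probe set. For 7 of the 14, every blebbistatin array lay below every pulsed array, against 3.67% of all probe sets. Cnn1 had differences of -0.98, -2.19 and -2.87 in series 2, 3 and 4, Tagln of -0.56, -1.16 and -1.74, and Acta2 of -0.40, -0.74 and -1.07. In these 3 genes the difference was smallest in series 2 and widest in series 4, whereas the brighter Myh11 probe set differed by -1.19, -0.95 and -0.71.

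**Figure D3:**
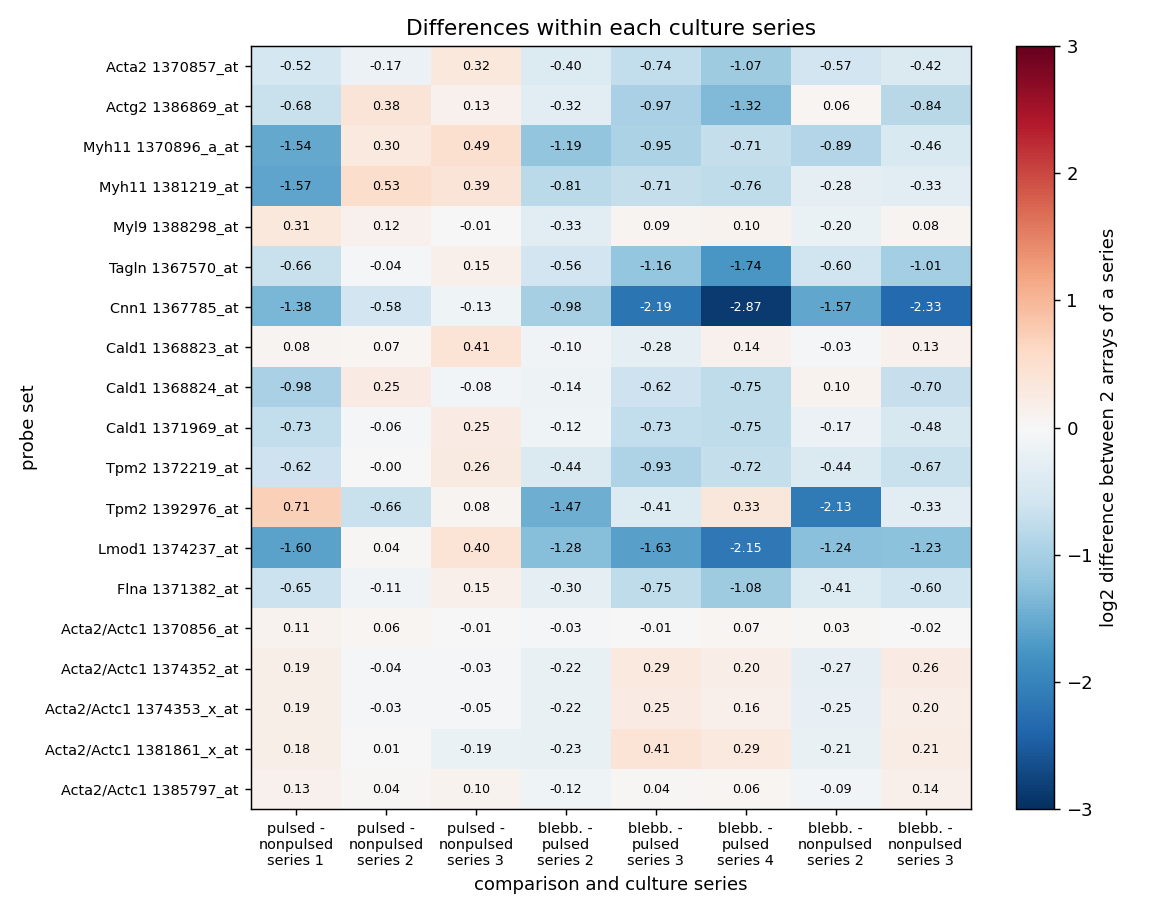
Log2 difference between 2 arrays of the same culture series (colour and printed value) for each probe set (rows) and each comparison and series (columns). The columns of blebbistatin against pulsed are blue for most smooth muscle probe sets, with Cnn1 at -2.87 in series 4. For pulsed against nonpulsed, 11 of the 14 single-gene probe sets are blue in series 1, 7 in series 2 and 3 in series 3. Of all 23281 probe sets tested, 8655, 9886 and 10451 were lower with pulses in these series.

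Pulsed arrays were set against nonpulsed arrays for the response to pacing itself. No common direction was found over the culture series. The median fitted change of the 14 probe sets was -0.12, against 0.04 over all probe sets, and 11 were negative, against 38.9% of all probe sets. At an unadjusted p under 0.05 in limma, 0 of the 14 were lower and 0 higher, against 1.36% and 7.71% of all probe sets, and 0 of 23281 passed the adjusted threshold (0%). The largest change was that of Cnn1, at -0.53 (SE 0.36; limma, unadjusted p = 0.179, adjusted p = 0.675), with differences of -1.38, -0.58 and -0.13 in series 1, 2 and 3. Cnn1 was the 1 probe set of 14 that was lower in every series, against 10.0% of all probe sets, and the dim Cald1 probe set the 1 that was higher in every series, against 24.1%. For 0 of the 14 did every pulsed array lie below every nonpulsed array, against 1.16% of all probe sets. The interval of the Acta2 change ran from -0.47 to 0.36, and that of Tagln from -0.63 to 0.49.

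Series 1 was unlike series 2 and 3 here. Series 1, 2 and 3 had median differences over the 14 probe sets of -0.67, 0.02 and 0.20, and 11, 7 and 3 of the 14 were lower with pulses. Of all 23281 probe sets tested, 8655, 9886 and 10451 were lower in these series. The brighter Myh11 probe set differed by -1.54, 0.30 and 0.49, and Lmod1 by -1.60, 0.04 and 0.40. Without series 1 the median of the fitted changes was 0.16, with 2 of 14 negative, and 1 of 14, the dimmer Myh11 probe set, was higher at an unadjusted p under 0.05 in limma. With only series 2 and 3 both Myh11 probe sets were, and 0 of 14 passed the adjusted threshold in either fit. The nonpulsed array of series 1 had the highest log2 signal of all 10 arrays for 9 of the 14 probe sets, a count not taken over all probe sets. In the same pair of arrays the median difference of 9 heart muscle markers was 0.80 and that of 13 fibroblast markers 0.01. The part of cell makeup in the difference between that pair of arrays was not tested. With arrays centred on their medians, the split of probe sets at an unadjusted p under 0.05 moved from 317 lower and 1796 higher to 899 lower and 1057 higher over the whole array, with still 0 of the 14 lower.

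Pulsed cultures with blebbistatin were also compared with nonpulsed cultures. This comparison shares its blebbistatin arrays with the one above, so the values stand beside those and do not add to them. Of the 14 probe sets, 12 had a negative change, against 39.0% of all probe sets. Their median was -0.71, and that of all probe sets 0.07. Within series 2 and 3, which held both groups, the medians of the 14 were closer to zero, at -0.43 and -0.54. Series 1 and 4 each lacked 1 of these groups and entered the fit through their other pair of arrays. At an unadjusted p under 0.05, 9 of 14 were lower and 0 higher in limma, against 6.89% and 15.5% of all probe sets. Actg2 was among the 9 (-0.71), but its blebbistatin array was below the nonpulsed one in series 3 only (-0.84). In series 2 the difference was 0.055. The 2 more than against pulsed cultures were the brighter Myh11 probe set, at -0.99 (SE 0.39), and the brightest Cald1 probe set, at -0.56 (SE 0.23). After adjustment 0 of the 14 passed in limma with the fixed block, against 0.472% of all probe sets, and Cnn1 was closest (adjusted p = 0.061). With culture series as a random replicate block 6 passed, Tagln, Cnn1, Acta2, Flna, the brighter Tpm2 probe set and Lmod1 (smallest adjusted p = 0.0224), where 1212 of all 23281 probe sets passed in place of 110. With a trended prior Cnn1 passed in limma (adjusted p = 0.0451), as did 216 of all probe sets. In both series that held these groups, 10 of 14 were lower and 0 higher, against 25.3% and 38.7% of all probe sets. For 7 every blebbistatin array lay below every nonpulsed array, against 6.90%. With arrays centred on their medians 2581 probe sets of the whole array were lower and 2423 higher at an unadjusted p under 0.05, in place of 1604 and 3608, and 10 of the 14 were lower.

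The regulators of this program were measured on the same arrays. For this and the following lists, counts are of genes with an unadjusted p under 0.05 in limma. In the comparisons of blebbistatin with pulsed and of pulsed with nonpulsed cultures, 0 genes of any list passed the adjusted threshold. Of all probe sets tested, 5.51% were lower and 6.09% higher with blebbistatin against pulsed cultures. With pulses 1.36% were lower and 7.71% higher. Srf itself had a fitted change of -0.19 with blebbistatin against pulsed cultures (SE 0.15) and 0.19 with pulses (SE 0.15). Myocd, which encodes myocardin, was at -0.29 (SE 0.25) and 0.56 (SE 0.25), and Mkl1, which encodes MRTF-A, at -0.11 (SE 0.11) and -0.08 (SE 0.11). None of the 3 had an unadjusted p under 0.05 in these comparisons (limma, 0.247, 0.273 and 0.357 with blebbistatin). With pulses the unadjusted p in limma were 0.26 for Srf, 0.0544 for Myocd and 0.5 for Mkl1. Myocd was higher with pulses in series 1, 2 and 3, by 1.275, 0.579 and 0.156. Mkl2 had no probe set with a symbol of its own. Of 16 SRF and myocardin family regulators tested, 4 were lower and 0 higher with blebbistatin at an unadjusted p under 0.05, and the median change was -0.13. The 3 with the smallest p were Klf4, a factor that represses smooth muscle genes (-0.67, SE 0.17), and the LIM proteins Csrp2 (-0.57, SE 0.17) and Csrp1 (-0.48, SE 0.17), which support SRF activity in smooth muscle. With pulses 4 of the 16 were higher, the 3 with the smallest p being Elk1 (0.31), Gata6 (0.34) and Foxo4 (0.40).

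Other genes that control smooth muscle contraction had mostly negative changes with blebbistatin. Of 20 tested, 18 had a negative change, against 44.5% of all probe sets, and the median was -0.20. At an unadjusted p under 0.05, 4 were lower and 0 higher, against 5.51% and 6.09% of all probe sets. Ppp1r14a encodes CPI-17, the inhibitor of myosin light chain phosphatase. Its log2 signal averaged 9.35 ± 0.17 over the pulsed arrays (SD, n = 4) and 8.26 ± 0.17 over the blebbistatin arrays (SD, n = 3), with differences of -0.92, -1.27 and -1.32 in series 2, 3 and 4 and a fitted change of -1.05 (SE 0.21; limma, unadjusted p = 0.00132, adjusted p = 0.189). Pdlim3, which encodes an actinin-associated LIM protein, was lower by nearly equal amounts in each series (-1.10, -1.11 and -1.10), with a fitted change of -0.96 (SE 0.24). Synpo2, which encodes the actin-bundling protein myopodin, was at -0.57 with blebbistatin (SE 0.16) and 0.51 with pulses (SE 0.16). With pulses Pdlim3 was at -0.39 and Synm, which encodes the intermediate filament protein synemin, at 0.30.

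Genes listed for the nonmuscle actin cytoskeleton, some of which striated muscle also uses, came next. Of 25 tested, 22 had a negative change with blebbistatin, against 44.5% of all probe sets, and the median was -0.20. At an unadjusted p under 0.05, 7 were lower and 1, the muscle filamin gene Flnc (0.37), higher, against 5.51% and 6.09% of all probe sets. Flnc was named after its value was seen. Myh10, which encodes nonmuscle myosin IIB, was at -0.46 (SE 0.10), with differences of -0.44, -0.55 and -0.51 in series 2, 3 and 4. Zyx, which encodes the focal adhesion protein zyxin, was at -0.57 (SE 0.17) and Filip1l at -0.56 (SE 0.17). With pulses 0 of the 25 were lower or higher at an unadjusted p under 0.05, and the smallest p were those of Pdlim5 (0.40), Fhl2 (0.18) and Lima1 (-0.32). The list of YAP and TGF beta type targets also held TGF beta ligands such as Tgfb2 and the receptor gene Tgfbr1. Of its 13 genes tested, 5 were lower and 0 higher with blebbistatin, with a median of -0.31. The smallest p were those of Edn1, the endothelin 1 gene (-1.13), Tgfb2 (-0.56) and Postn, periostin (-0.27). With pulses Ltbp1 (-0.47) was the 1 lower gene of the 13, followed by Smad7 (0.37) and Postn (-0.17).

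Genes of the striated sarcomere, several of them SRF targets too, were mixed in direction. Of 20 tested, 7 were negative and 13 positive with blebbistatin, where 44.5% of all probe sets were negative. The median change was 0.04, with 2 lower and 1 higher at an unadjusted p under 0.05, against 5.51% and 6.09% of all probe sets. Myl7, the atrial regulatory light chain, was at 0.70 (SE 0.22), Myh7, the beta myosin heavy chain, at -0.49 (SE 0.15), and Lmod3 at -0.30 (SE 0.12). With pulses 18 of the 20 were positive with a median of 0.26, while 14231 of all 23281 probe sets were positive. Myom2 (0.88), Myh6 (0.39) and Actn2 (0.47) had the smallest p. The difference between the smooth muscle and striated lists was not tested. Immediate early genes of the serum response, the other class of SRF targets, had a median of -0.45 with blebbistatin over 19 genes, with 4 lower and 0 higher. Their medians were -0.48, -0.02 and -1.15 in series 2, 3 and 4, and Dusp1 (-0.86), Klf2 (-0.57) and Jun (-0.43) had the smallest p. With pulses the smallest p were those of Jun (0.34), Klf2 (0.25) and Ier2 (-0.34), and 0 of 19 had an unadjusted p under 0.05 in limma.

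**Figure D4:**
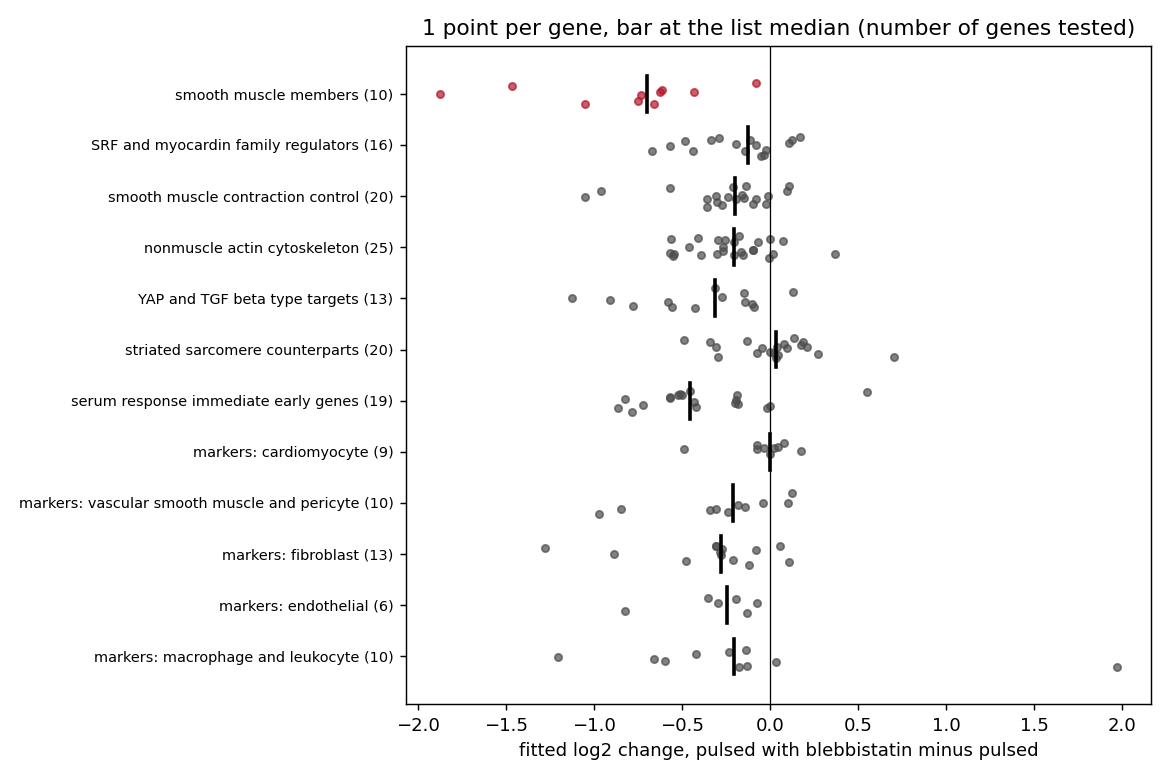
Fitted log2 change of pulsed with blebbistatin against pulsed cultures (horizontal axis) for each gene of the smooth muscle list (red, 1 probe set per gene) and of pathway and marker lists (grey), with a bar at each list's median. The smooth muscle genes have a median of -0.70, the immediate early genes -0.45, the YAP and TGF beta type targets -0.31 and the fibroblast markers -0.28. The cardiomyocyte markers have one of 0.00 and the striated sarcomere genes one of 0.04. All other lists have medians between -0.24 and -0.13.

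Markers of other cell types were set beside these values. Of all probe sets tested, 5.51% were lower and 6.09% higher with blebbistatin against pulsed cultures at an unadjusted p under 0.05 in limma. With blebbistatin against pulsed cultures, 5 of 13 fibroblast markers were lower and 0 higher at an unadjusted p under 0.05, with a median change of -0.28 and medians of -0.34, -0.32 and -0.16 in series 2, 3 and 4. The 3 fibroblast markers with the smallest p were Dpt, which encodes dermatopontin (-1.28, SE 0.14; limma, unadjusted p = 2.9e-05, adjusted p = 0.0717, lower in 3 of 3 series), Col3a1 (-0.31) and Mfap4 (-0.89). Of 10 vascular smooth muscle and pericyte markers outside the member list, 2 were lower and 0 higher, with a median of -0.21. The 2 were Rgs4 (-0.97) and Mcam (-0.84). Endothelial markers had 2 of 6 lower, Pecam1 (-0.82) and Egfl7 (-0.35), and a median of -0.24, with medians of -0.15, -0.28 and -0.32 in series 2, 3 and 4, and macrophage and leukocyte markers 3 of 10 lower, 1 higher and a median of -0.20. Of 9 heart muscle markers, 1 was lower and 0 higher, with a median of 0.00. Negative changes were found for 11 of 13 fibroblast, 8 of 10 vascular, 6 of 6 endothelial and 8 of 10 macrophage markers. For heart muscle markers it was 4 of 9, and for all probe sets 44.5%. Against nonpulsed cultures these counts were 12, 6, 4, 8 and 1 in the same order, and 39.0% of all probe sets. There 7 of the 13 fibroblast markers were lower and 0 higher, against 6.89% and 15.5% of all probe sets. The summed linear signal of the fibroblast markers ran from 37920 to 66825 in pulsed and from 32345 to 55538 in blebbistatin arrays, and that of the vascular smooth muscle and pericyte markers from 4141 to 5470 and from 4080 to 4707. For the endothelial markers it ran from 845 to 1435 and from 779 to 1285, and for the macrophage and leukocyte markers from 1682 to 5131 and from 1673 to 3396. These ranges, taken over arrays of different series, overlapped. The sum of the 10 smooth muscle genes, at the brightest probe set of each, ran from 33040 to 38302 in pulsed and from 20451 to 29134 in blebbistatin arrays. In each list 0 markers were at the lowest level on all arrays. As a measure of RNA quality, the log2 signal of 3' less 5' control probe sets was 0.06 to 0.17 for GAPDH in pulsed and 0.19 to 0.23 in blebbistatin arrays, which did not overlap. For beta-actin it was 0.60 to 0.72 and 0.69 to 0.77, and for hexokinase 0.80 to 1.04 and 0.81 to 1.03, which did. In nonpulsed arrays it was 0.06 to 0.175 for GAPDH, 0.45 to 0.68 for beta-actin and 0.85 to 0.91 for hexokinase. The nonpulsed GAPDH and beta-actin ranges lay below those of the blebbistatin arrays without overlap, and the hexokinase range lay within theirs. The part of these cell types and of RNA quality in the smooth muscle values was not tested.

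The genes outside the list whose signal over the 10 arrays was most like the mean of the 14 probe sets were Cstf3, Il1rap, Rcn2, Klf11, Lxn, Ephb1, Yipf5 and S100a11. Pearson's r ran from 0.96 to 0.98 as a description over arrays that share culture series and groups, picked as the highest among all probe sets with 1 symbol. Their fitted changes with blebbistatin against pulsed cultures ran from -0.18 (Yipf5) to -1.18 (Il1rap), with Ephb1 at -1.12, and those with pulses from -0.07 to -0.32.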

How the data were processed

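Total RNA was hybridised to Affymetrix rat arrays, 1 per sample, per the labels' protocols. The submitters' processing notes name PLIER and Affymetrix Expression Console 1.1 for the deposited log2 values. No source used here states the settings or the log base, and base 2 was taken from the values. No further scaling was applied, since values of equal rank lay within 0.263 of each other across arrays. The platform annotation table named the probe sets, and 57 control probe sets were left out, as was the lowest 25% by mean. Differences were tested per probe set with limma 3.58.1 in R 4.3.3 (two-sided, all 10 arrays, culture series as a fixed block, Benjamini-Hochberg adjustment over 23281 probe sets, threshold 0.05). The series design names 3 arrays per treatment, while the labels give 4 pulsed arrays, which were all used. Titles give the culture date, so arrays of a series are paired. Deviations from group means correlated at 0.353 to 0.633 in the 8 same-series pairs (median 0.42) and at -0.578 to 0.498 in the 25 others (median -0.26). Deviations within a group cancel out, so positive same-series values push the other pairs towards negative ones. The genes and lists were chosen with earlier results of these data known.

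Genes named beyond the members were Srf, Myocd and Mkl1 in any case, the 3 of each pathway list with the smallest p in each of the first 2 comparisons described, and the 8 most alike in pattern. A gene of a list was represented by its brightest probe set. The limma fit was tested on simulated data. Cell type markers are named by the same rule of smallest p, applied after their values were seen. Alternatives changed the block, samples, scaling, filter, probe set rule and prior, or left out arrays and culture series, and the count with the 5 shared probe sets was added after the data were seen. Protein sequences were not used here. The number of arrays limits the precision.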

Additional observations from a re-analysis of the deposited data

Results flagged for a closer look

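Among the 4 pulsed arrays, 3 of 19 probe sets had 1 array far from the others, by the gap to the nearest array divided by the range. Chance alone marks about 1 in 20 groups. For the Acta2 probe set the pulsed array of series 4 was highest, at 13.10 against 12.77 for the next (ratio 0.860). For the middle of the 3 Cald1 probe sets the pulsed array of series 1 was lowest, at 9.54 against 10.11 (ratio 0.899). For the dim Cald1 probe set the pulsed array of series 4 was lowest, at 5.03 against 5.47 (ratio 0.867).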

How the results depend on the processing

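Over all alternatives run, the members kept a negative median with blebbistatin against pulsed cultures (-0.48 to -0.72) and against nonpulsed cultures (-0.50 to -0.99). The count lower at an unadjusted p under 0.05 against pulsed cultures was 7 as reported and 7 with no replicate block, 8 with a random replicate block, 11 with only the groups compared, 11 without culture series 1 and 4 without culture series 3. Over all probe sets 5.51% were lower as reported, and 3.45%, 5.52%, 6.2%, 7.03% and 2.71% under these alternatives in turn. Leaving out single arrays gave 6 to 11. The count past the adjusted threshold was 2 without culture series 1 and 0 to 2 without single arrays. Against nonpulsed cultures it was 6 with a random replicate block, 1 with a trended prior and 0 with no replicate block. The median against nonpulsed cultures was -0.50 with only the groups compared and with only series 2 and 3, -0.80 with median centring, -0.57, -0.99, -0.88 and -0.63 without culture series 1, 2, 3 and 4, and -0.91 to -0.57 without single arrays. Over all probe sets the count past the adjusted threshold against pulsed cultures was 3, and 0 to 48 under the alternatives; against nonpulsed cultures it was 110, and 0 to 1212. For pulsed against nonpulsed cultures 1 probe set was lower with only the groups compared and without culture series 4, and 0 to 1 without single arrays. In the other direction 0 were higher as reported, 1 without culture series 1 and 2 with only series 2 and 3. The median turned positive without culture series 1 (0.16) and with only series 2 and 3 (0.09). Leaving out 1 array of a series of 2 equals leaving out that series, because the block then takes up the other. Apart from these, the cause was not tested. Of 330 values of single members per comparison, 291, 286 and 277 kept their direction and side of the unadjusted threshold or moved by less than their SE, in the order pulsed against nonpulsed, blebbistatin against pulsed and blebbistatin against nonpulsed, and 0 called values changed sign.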
